A study of Homo sapiens with 18 samples.

Results

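The genes described here are 37 genes of homologous recombination, of the Fanconi pathway for DNA crosslinks and of the checkpoint kinases that act with them. They were taken by gene symbol from a list and not by a rule on their values. The list itself was chosen with earlier results of these data known. All 37 were found in each of the 4 deposited tables, out of 61029 row names over the tables. Rows that repeat a symbol, 1533 in each MM1S expression table and 75 in the RIP table, were counted as separate names. MRE11 stands under its older symbol MRE11A in the RIP table. The study aimed hairpins at RBM39, a splicing factor, in H929 and MM1S, which are established human multiple myeloma lines of plasma cell type. For H929 there were 3 libraries labelled scramble (a control hairpin) and 3 labelled shRBM39 (a hairpin against RBM39); for MM1S there were 2 scramble and 2 shRBM39 libraries. A separate set of MM1S libraries held 3 treated with DMSO, the solvent, and 3 labelled In, read here as the indisulam of the study's design; indisulam is a compound that makes a ubiquitin ligase degrade the RBM39 protein. RNA bound by an RBM39 antibody and by control IgG in MM1S cells was sequenced once each (RNA immunoprecipitation, RIP). No further genetic change is named for any group, and dose, time, hairpin sequence and the origin of the replicates are not given in the labels. The p-values therefore measure the spread between these libraries, which may be technical, and it is not stated whether the 2 MM1S shRBM39 libraries carry the same hairpin.

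Homologous recombination repairs a DNA double-strand break by copying the sister chromatid. The MRE11-RAD50-NBN complex senses the break, nucleases resect its ends, and BRCA1 with its partners brings in BRCA2, which prepares the single strand for pairing with the sister. The Fanconi pathway acts where replication stalls at DNA crosslinks: a core complex with the ubiquitin-conjugating enzyme UBE2T attaches ubiquitin to FANCD2 and FANCI, which then direct nucleases and recombination to the lesion. Many of these genes are expressed mainly in cells that copy their DNA.

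Values are TPM in both MM1S expression tables and FPKM in the H929 and RIP tables, so levels are set side by side only within a table. A log2 difference is that of log2(value + 1) between group means, which understates the change of low genes, and a gene is said to rise or fall where the Benjamini-Hochberg adjusted p of limma over all genes tested was below 0.05. RBM39 itself stood at 176 and 205 TPM in the MM1S scramble libraries and at 64.8 and 52.2 TPM in the shRBM39 libraries. In H929 it went against the labels: 4.43 to 4.56 FPKM in the libraries labelled scramble and 35.6 to 38.6 FPKM in those labelled shRBM39. Every H929 direction below is therefore that of the libraries labelled shRBM39 relative to those labelled scramble, as deposited. With indisulam RBM39 RNA was at 149.42 to 226.50 TPM against 178.27 to 195.97 TPM in DMSO, which says nothing of the protein. Indisulam replicate 3 stood apart: 12550 genes reached 1 TPM there against 13748 and 13751 in the other indisulam libraries, and its 100 highest genes held 61.1% of the TPM against 54.6% and 55.6%. Replicates 1 and 2 each lay above it by a median of 0.419 in log2(value + 1) over 13445 genes. Over the 37 members these medians were 0.469 and 0.503. Of 9 plasma cell markers searched, all stood at 1 or more in every expression library except CD38 at 0.920 TPM in indisulam replicate 3, and the B cell markers found were below 1. Of 4 T cell markers CD3E alone reached 1; the summed T cell list was 39.3 to 47.1 FPKM in H929 labelled scramble and 15.7 to 18.5 FPKM in H929 labelled shRBM39, and it was 0.930 to 5.73 TPM in the MM1S tables, lower in the perturbed groups. Of 4 myeloid markers CD68 alone reached 1, with a summed list of 25.1 to 26.9 and 13.4 to 14.7 FPKM in the same H929 groups. In MM1S CD68 was at 15.4 to 20.5 TPM in scramble and 5.42 to 9.55 TPM in shRBM39. It was at 9.18 to 10.5 TPM in DMSO and 6.90 to 8.09 TPM with indisulam. The erythroid marker HBB was at 10.9 to 12.2 TPM in MM1S scramble and 5.78 to 15.4 TPM in shRBM39. HBB was at 25.9 to 29.4 TPM in DMSO and 28.2 to 41.0 TPM with indisulam, and at most 1.05 FPKM in H929. In H929 labelled scramble and labelled shRBM39 the stromal list, led by ACTA2, summed to 15.8 to 17.0 and 5.45 to 5.86 FPKM. The epithelial list summed to 1.49 to 2.41 and 0.356 to 0.878 FPKM, and the plasma cell list to 5011 to 5130 and 7922 to 8059 FPKM. The plasma cell markers did not share 1 direction. SLAMF7 (194 to 213 and 168 to 182 FPKM) and PRDM1 (65.2 to 66.5 and 47.8 to 52.6 FPKM) were lower in H929 labelled shRBM39. CD38 was lower too (7.40 to 7.51 and 5.34 to 6.25 FPKM), while SDC1, TNFRSF17, IRF4, XBP1, MZB1 and JCHAIN were higher. The part of these markers in the results was not tested. In bulk RNA, fewer cells expressing a gene and less RNA per cell cannot be told apart.

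In MM1S, 20 of the 37 genes fell with shRBM39 and 0 rose by limma; at an unadjusted p below 0.05 the counts were 26 and 0. Among all 14152 genes tested 6.35% fell and 3.97% rose. The summed level of the 37 genes was 1087 and 1026 TPM in the scramble libraries and 586 and 485 TPM in the shRBM39 libraries. The median log2 difference of the 37 was -0.98, beside -0.000753 for all genes tested. The libraries did not overlap in 29 members that were lower and 3 that were higher, beside 31.9% and 30.5% of all genes. These calls rest on few libraries. They were lost when scramble replicate 1, scramble replicate 2 or shRBM39 replicate 2 was left out, and most were lost without shRBM39 replicate 1. Each of these fits leaves 1 library in a group. All 20 stayed below 0 in every alternative in which they were fitted. Their groups did not overlap, so leaving out a library or adding a replicate block could not have reversed them. Proliferation markers moved with the members: 18 of 20 fell, and their summed level was 2361 to 2409 TPM in scramble and 724 to 873 TPM in shRBM39; their part in the result was not tested.

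The FANCD2-FANCI pair is the substrate of the Fanconi core complex, and both of its genes fell. FANCI was at 146 and 134 TPM in the scramble libraries and at 36.1 and 39.6 TPM in the shRBM39 libraries, which is -1.86 on the log2 scale (SE 0.128, limma adjusted p = 0.0116). Its groups lay far apart, and it was the highest of the 37 genes in both scramble libraries. FANCD2 was at 73.7 and 42.8 TPM in scramble and at 15.5 and 14.9 TPM in shRBM39 (-1.82, SE 0.267, limma adjusted p = 0.0235). The scramble libraries differed from each other for FANCD2 but both stayed above the shRBM39 libraries.

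Promoter windows from RefSeq are shown for 6 genes, since promoters of genes of the dividing cell often hold E2F and NF-Y sites. Among members with a window, these are the 4 with the largest falls in the MM1S knockdown and the 2 with the smallest change. Each runs 5′ to 3′ on the gene's strand from 250 bases before the annotated start to 50 after it, in GRCh38.p14. Capitals mark matches to the motifs searched on either strand: TTTCGCGC, TTTGGCGC, TTTCCCGC and TTTGCCGC (cores of E2F sites), TTTGAA and TTCGAA (cores of the cell cycle genes homology region) and CCAAT (the NF-Y box).
FANCD2 (fell, chr3:10026187-10026486, plus strand): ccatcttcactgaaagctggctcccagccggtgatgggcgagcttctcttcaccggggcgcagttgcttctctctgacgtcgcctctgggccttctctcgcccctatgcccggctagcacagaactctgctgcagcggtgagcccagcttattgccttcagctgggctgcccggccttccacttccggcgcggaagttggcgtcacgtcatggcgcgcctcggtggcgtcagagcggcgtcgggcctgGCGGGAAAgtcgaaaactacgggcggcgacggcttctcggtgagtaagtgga
XRCC2 (fell, chr7:152676092-152676391, minus strand): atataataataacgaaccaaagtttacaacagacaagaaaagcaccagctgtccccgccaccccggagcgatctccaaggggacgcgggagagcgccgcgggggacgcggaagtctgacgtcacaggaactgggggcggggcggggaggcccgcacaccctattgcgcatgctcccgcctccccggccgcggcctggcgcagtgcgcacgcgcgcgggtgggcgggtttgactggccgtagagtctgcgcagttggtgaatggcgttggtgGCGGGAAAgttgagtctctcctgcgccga
CHEK1 (fell, chr11:125625979-125626278, plus strand): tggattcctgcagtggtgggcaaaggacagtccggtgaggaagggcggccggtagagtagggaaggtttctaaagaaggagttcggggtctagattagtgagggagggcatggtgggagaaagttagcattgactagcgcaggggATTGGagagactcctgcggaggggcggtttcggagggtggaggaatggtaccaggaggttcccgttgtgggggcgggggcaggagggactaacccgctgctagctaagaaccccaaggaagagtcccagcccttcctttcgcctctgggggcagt
FANCG (fell, chr9:35079893-35080192, minus strand): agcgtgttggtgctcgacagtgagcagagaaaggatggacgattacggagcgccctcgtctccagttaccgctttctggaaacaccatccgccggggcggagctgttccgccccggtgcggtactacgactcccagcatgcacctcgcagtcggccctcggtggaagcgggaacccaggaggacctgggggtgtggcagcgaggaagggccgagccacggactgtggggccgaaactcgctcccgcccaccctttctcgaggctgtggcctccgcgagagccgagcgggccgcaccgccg
PALB2 (not called, chr16:23641261-23641560, minus strand): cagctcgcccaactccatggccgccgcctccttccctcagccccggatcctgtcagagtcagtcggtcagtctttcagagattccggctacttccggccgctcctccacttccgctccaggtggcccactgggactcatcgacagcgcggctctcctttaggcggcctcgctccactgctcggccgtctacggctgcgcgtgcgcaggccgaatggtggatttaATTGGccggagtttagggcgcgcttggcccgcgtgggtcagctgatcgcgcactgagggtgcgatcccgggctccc
FANCF (not called, chr11:22625774-22626073, minus strand): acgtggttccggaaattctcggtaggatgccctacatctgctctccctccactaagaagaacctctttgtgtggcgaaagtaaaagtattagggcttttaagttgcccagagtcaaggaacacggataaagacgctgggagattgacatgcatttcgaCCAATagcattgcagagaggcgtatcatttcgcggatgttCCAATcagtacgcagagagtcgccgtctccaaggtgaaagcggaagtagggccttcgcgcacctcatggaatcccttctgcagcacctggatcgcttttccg

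The capitals in FANCD2 and XRCC2 are the reverse complement of TTTCCCGC, those in CHEK1 and PALB2 the reverse complement of CCAAT, and FANCF holds CCAAT 2 times. The FANCG window matched none of the motifs, which says only that these letters are not in it. Of the 37 genes 34 had at least 1 window in the table; FANCI, RAD54B and NBN did not. Any of the 4 E2F cores was found in 7 of 34 (20.6%), namely EXO1, TOPBP1, CLSPN, XRCC2, FANCA, FANCC and FANCD2, and in 3.99% of the 27305 genes with a window. For the 2 cores TTTCCCGC and TTTGCCGC, which were added after the sequences had been looked at, the shares were 11.8% and 2.94% of members and 1.98% and 0.725% of all genes. CCAAT was in 47.1% of members and 39.7% of all genes, and TTTGAA in 14.7% and 18.2%. The other cores, TTTCGCGC and TTTGGCGC, were in 3 of 34 members (8.82%) and 1.40% of all genes, and in 2 of the 19 fallen members and 1 of the 15 not called that have a window. A match is a description of the sequence and not a site of binding.

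In the Fanconi core complex with UBE2T, 5 of 9 genes fell in the MM1S knockdown and 0 rose, beside 6.35% and 3.97% of all genes. UBE2T, the enzyme that passes ubiquitin to FANCD2, was at 101 and 116 TPM in scramble and at 53.4 and 34.3 TPM in shRBM39 (-1.32, SE 0.232, limma adjusted p = 0.0331). FANCG, a scaffold of the complex, was at 62.2 and 40 TPM in scramble and at 20.6 and 14.6 TPM in shRBM39 (-1.47, SE 0.270, limma adjusted p = 0.0362). FANCL, the ubiquitin ligase subunit, was at 30.0 and 30.2 TPM in scramble and at 15.6 and 13.9 TPM in shRBM39 (-0.98, limma adjusted p = 0.0219). For these genes the higher shRBM39 library stayed below the lower scramble library. FANCE, which contacts FANCD2, fell by 1.26 and FANCB, a partner of FANCL, fell by 1.12 on the log2 scale. FANCA (-0.43) and FANCM (-0.67), the DNA translocase that anchors the complex, had lower values that did not pass, and FANCC (0.12) and FANCF (0.10) had values near 0. The subunits of this complex thus did not share 1 difference: FANCF was at 9.79 and 10.7 TPM in scramble and at 11.3 and 10.7 TPM in shRBM39, so that the shRBM39 libraries were barely above the scramble libraries.

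Among break sensing and resection genes, EXO1, a nuclease that lengthens the resected strand, fell from 35.3 and 34.9 TPM to 16.7 and 11.3 TPM in the MM1S knockdown (-1.29, SE 0.208, limma adjusted p = 0.0276). MRE11, the nuclease of the sensing complex, was at 23.9 and 22.4 TPM in scramble and at 12.9 and 8.97 TPM in shRBM39 (-1.03, SE 0.204, limma adjusted p = 0.0422). The partners of MRE11 did not fall: RAD50 was at 19.4 and 18.1 TPM in scramble and at 27.4 and 19.6 TPM in shRBM39 (0.30, limma adjusted p = 0.350), and NBN had a difference of 0.02. RBBP8, which starts resection as CtIP, had a difference of -0.82 that did not pass.

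Of the 6 checkpoint genes 4 fell, beside 6.35% of all genes. CHEK1, the kinase that holds the cycle when replication stalls, was at 62.4 and 64.7 TPM in scramble and at 24.7 and 18.3 TPM in shRBM39 (-1.54, SE 0.177, limma adjusted p = 0.0160). CLSPN, the adaptor that presents CHEK1 to ATR, fell by 1.18, TOPBP1, an activator of ATR, by 0.88, and CHEK2, the kinase downstream of ATM, by 0.85. TOPBP1 was at 62 and 63.9 TPM in scramble and at 34.7 and 32.8 TPM in shRBM39, with little spread in either group (SE 0.121, limma adjusted p = 0.0215). The apical kinases did not pass: ATM was at 29.1 and 26.5 TPM in scramble and at 29.6 and 21.6 TPM in shRBM39, with overlapping groups, and ATR had a difference of -0.21. The difference between these kinases and their targets was not tested.

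BRCA1 fell from 42.1 and 33.1 TPM to 18.2 and 17.7 TPM (-1.02, SE 0.164, limma adjusted p = 0.0281), and BRCA2 from 9.07 and 7.05 TPM to 3.31 and 2.81 TPM (-1.15, SE 0.212, limma adjusted p = 0.0364). PALB2, which links both proteins, had a difference of -0.08. BARD1, the RING partner of BRCA1, was at 31.8 and 16.4 TPM in scramble and at 6.99 and 16.2 TPM in shRBM39. Its spread within each group was wide, and the difference of -1.03 did not pass (SE 0.462, limma adjusted p = 0.197).

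In the strand exchange group (RAD51B, RAD51C, RAD51D, XRCC2, XRCC3, RAD54L and RAD54B), which assists pairing with the sister strand, 2 of 7 fell, beside 6.35% of all genes. XRCC2 was at 20 and 21.2 TPM in scramble and at 9.07 and 4.47 TPM in shRBM39 (-1.54, SE 0.309, limma adjusted p = 0.0430). RAD54L was at 20.7 and 18.0 TPM in scramble and at 10.2 and 10.4 TPM in shRBM39 (-0.85, SE 0.153, limma adjusted p = 0.0346). Both genes had groups that did not overlap. RAD51C, which binds XRCC3 in one complex and RAD51B, RAD51D and XRCC2 in another, was at 34.0 and 34.7 TPM in scramble and at 32.0 and 21.9 TPM in shRBM39 (-0.36, limma adjusted p = 0.283). XRCC3 (-1.0), RAD51B (-1.20) and RAD54B (-0.89) had lower values that did not pass, and RAD51D was at 0.15.

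Of the helicases, nuclease and ligase at stalled forks, BRIP1, the helicase that binds BRCA1, was at 11.2 and 9.91 TPM in scramble and at 3.84 and 3.51 TPM in shRBM39 (-1.31, SE 0.180, limma adjusted p = 0.0215). TRAIP, a ubiquitin ligase that acts on the replicative helicase at crosslinks, was at 19.4 and 15.3 TPM in scramble and at 7.44 and 5.22 TPM in shRBM39 (-1.33, SE 0.225, limma adjusted p = 0.0306). BLM, the helicase lost in Bloom syndrome, fell by 0.88. FAN1, a nuclease that can act beside the Fanconi proteins, had the highest difference of the 37, with 13.4 and 14.4 TPM in scramble and 23.9 and 16.1 TPM in shRBM39 (0.47), and did not pass (limma adjusted p = 0.207).

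**Figure D1:**
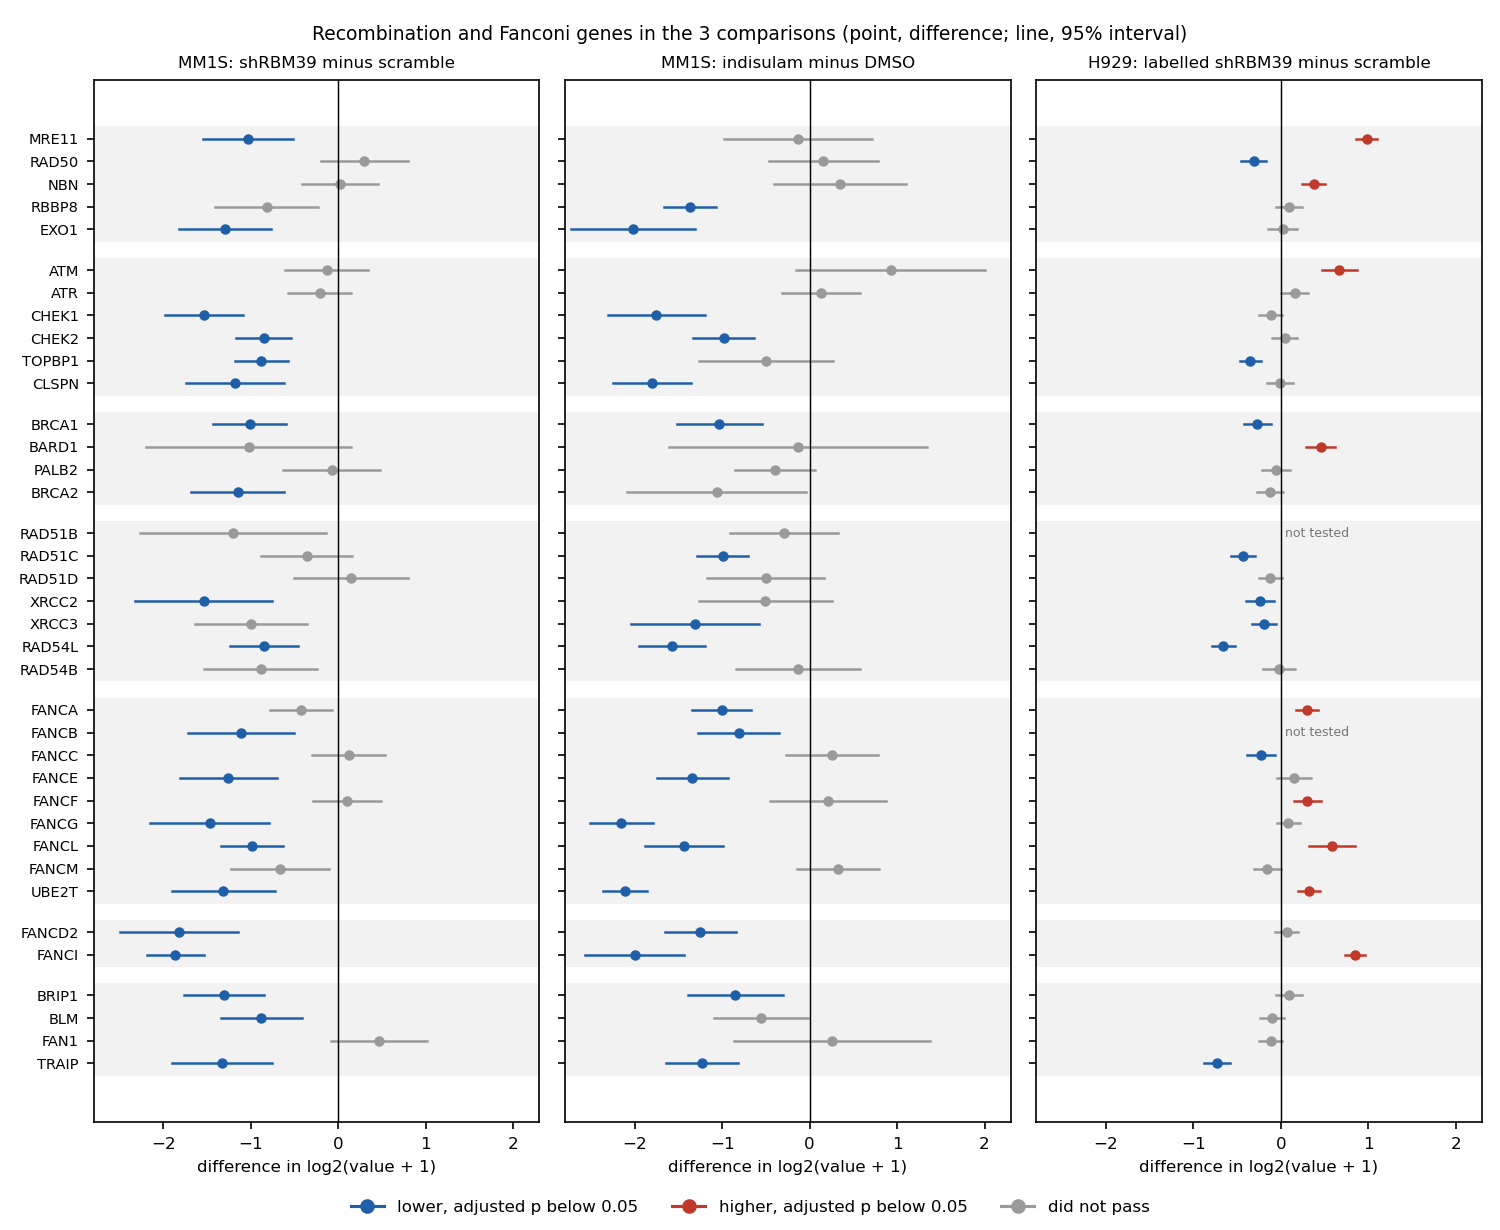
Log2 difference on the log2(value + 1) scale for each of the 37 genes, ordered by role, in MM1S with shRBM39 (2 against 2 libraries), MM1S with indisulam (3 against 3) and H929 (3 labelled shRBM39 against 3 labelled scramble); bars are 95% confidence intervals from limma and colour marks genes below and above 0 that passed and genes that did not. In the MM1S panels all genes that passed lie below 0 (20 and 19), and in the H929 panel 9 lie below and 9 above.

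With indisulam in MM1S, 19 of 37 genes fell and 0 rose by limma (21 and 0 at an unadjusted p below 0.05), beside 21.5% of 13445 genes tested that fell and 8.47% that rose. The summed level of the 37 genes was 568 to 601 TPM in DMSO and 334, 333 and 206 TPM in indisulam replicates 1 to 3. The median log2 difference was -0.85, and the groups did not overlap in 21 members, all lower, beside 32.3% of all genes lower and 14.9% higher. Without indisulam replicate 3 the same 19 fell and 5 rose; by that fit 27.8% of 14238 genes fell and 37.9% rose. Proliferation markers again moved with the members, with 18 of 20 lower and a summed level of 1519 to 1686 TPM in DMSO and 368 to 509 TPM in indisulam; their part in the result was not tested.

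In the Fanconi core complex with UBE2T, 6 of 9 genes fell with indisulam, beside 21.5% of all genes. FANCG and UBE2T had the largest differences of the members with 1 added to each value, and CLSPN (-2.77) and EXO1 (-2.40) had larger ones with 0.1 added. FANCG was at 48.1, 48.2 and 47.4 TPM in DMSO and at 8.10, 10.7 and 11.6 TPM in indisulam (-2.15, SE 0.153, limma adjusted p = 0.000192). UBE2T was at 83.2, 79.7 and 87.5 TPM in DMSO and at 17.2, 19.9 and 18.6 TPM in indisulam (-2.11, SE 0.107, limma adjusted p = 7.15e-05). Both genes varied little within each group, and every indisulam library lay far below every DMSO library. FANCL was at 16.7, 16.9 and 19 TPM in DMSO and at 6.05, 7.25 and 4.54 TPM in indisulam (-1.43, SE 0.189, limma adjusted p = 0.00188). FANCA was at 23.8, 27.3 and 26.0 TPM in DMSO and at 13.3, 13.0 and 10.7 TPM in indisulam (-1.01, SE 0.144, limma adjusted p = 0.00249). FANCE fell by 1.34 and FANCB by 0.81; FANCB was under 1 TPM in all indisulam libraries and passed the filter on low values through the DMSO group alone.

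FANCI was at 55.7, 46.1 and 50.1 TPM in DMSO and at 15.6, 13.6 and 7.81 TPM in indisulam (-2.0, SE 0.241, limma adjusted p = 0.00134). FANCD2 was at 26.9, 24.6 and 24.2 TPM in DMSO and at 12.4, 9.87 and 8.18 TPM in indisulam (-1.25, SE 0.173, limma adjusted p = 0.00228). Both members of the pair were lowest in indisulam replicate 3, and all indisulam libraries lay below all DMSO libraries. EXO1 was at 13.8, 13.1 and 13.6 TPM in DMSO and at 3.05, 4.02 and 1.22 TPM in indisulam (-2.03, SE 0.301, limma adjusted p = 0.00307). CHEK1 was at 20.9, 22.1 and 23.9 TPM in DMSO and at 6.63, 7.83 and 3.89 TPM in indisulam (-1.75, SE 0.236, limma adjusted p = 0.00206). CLSPN was at 4.78, 3.82 and 5.24 TPM in DMSO and at 0.610, 0.850 and 0.380 TPM in indisulam (-1.80, SE 0.189, limma adjusted p = 0.000765). Like FANCB, CLSPN passed the filter through the DMSO group alone. RBBP8, which had not passed in the knockdown, fell from 35.4, 37.0 and 36.4 TPM to 15.0, 13.1 and 12.3 TPM (-1.37, SE 0.127, limma adjusted p = 0.000498).

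The strand exchange group had 3 of 7 lower with indisulam, beside 21.5% of all genes. RAD54L was at 15.5, 16.3 and 15.9 TPM in DMSO and at 4.96, 5.2 and 3.95 TPM in indisulam (-1.57, SE 0.160, limma adjusted p = 0.000669). RAD51C was at 28.4, 29.0 and 30.1 TPM in DMSO and at 13.7, 13.3 and 15.5 TPM in indisulam (-1.0, SE 0.125, limma adjusted p = 0.00149). XRCC3 fell by 1.31, but its limma adjusted p rose above 0.05 when DMSO replicate 1, 2 or 3 or indisulam replicate 1 was left out (0.0612 to 0.0876). XRCC2 had a difference of -0.51 that did not pass: 5.68, 5.00 and 5.75 TPM in DMSO and 4.97, 4.88 and 1.69 TPM in indisulam, so that replicate 3 alone stood low. BRCA1 was at 18.0, 16.7 and 21.3 TPM in DMSO and at 11.0, 8.73 and 6.52 TPM in indisulam (-1.03, SE 0.208, limma adjusted p = 0.0103; 0.0631 without DMSO replicate 3). TRAIP fell by 1.23, CHEK2 by 0.98 and BRIP1 by 0.85; the limma adjusted p of BRIP1 was between 0.0803 and 0.134 without any of DMSO replicates 1, 2 and 3 or indisulam replicate 1, and that of FANCB between 0.0694 and 0.111 without DMSO replicate 1, DMSO replicate 3 or indisulam replicate 1.

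The indisulam libraries disagreed among themselves for a group of other members. Replicate 3 was also the lower library over all genes, as given above, so low values there are not particular to these members. ATM was at 10.5, 8.31 and 8.42 TPM in DMSO and at 29.4, 25.6 and 7.55 TPM in indisulam (0.93, SE 0.459, limma adjusted p = 0.169). Without replicate 3 its difference was 1.5 (limma adjusted p = 7.40e-05). FAN1 was at 6.46, 5.80 and 6.46 TPM in DMSO and at 12.2, 12.1 and 2.73 TPM in indisulam, a difference of 0.26 with all libraries and 0.86 without replicate 3. Both genes were high in replicates 1 and 2 and below the DMSO range in replicate 3. NBN (0.72), FANCF (0.55) and FANCC (0.46) likewise passed above 0 only when replicate 3 was left out. BARD1 varied most, with 21.9, 5.02 and 2.38 TPM in indisulam around 7.62, 7.08 and 7.81 TPM in DMSO. BRCA2 was at 4.64, 2.90 and 3.25 TPM in DMSO and at 0.8, 3.4 and 0.300 TPM in indisulam, so that replicate 2 lay within the DMSO range (-1.06, limma adjusted p = 0.109).

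**Figure D2:**
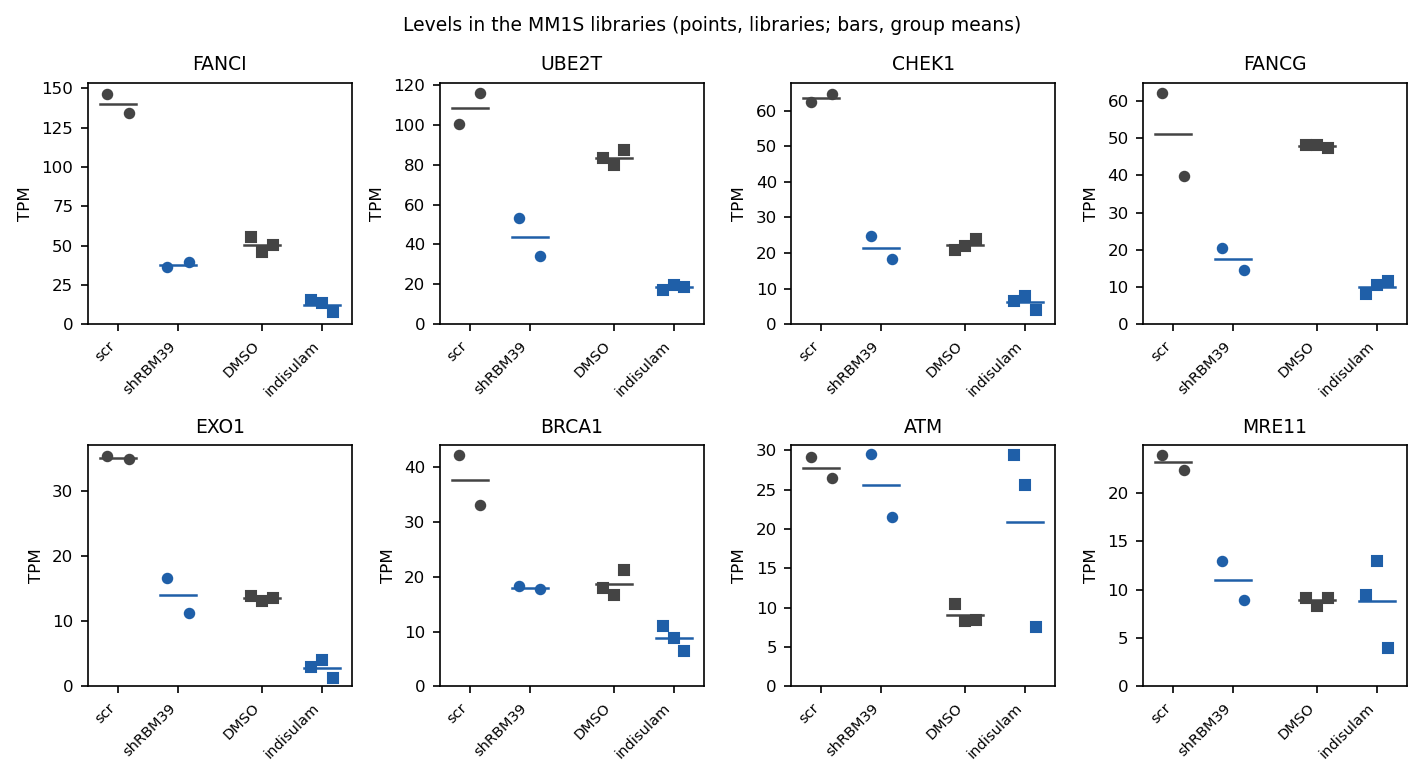
TPM in every MM1S expression library for 8 members, with scramble and shRBM39 libraries from one table and DMSO and indisulam libraries from another that was normalized on its own; points are libraries and bars are group means. FANCI, UBE2T, CHEK1, FANCG, EXO1 and BRCA1 lie lower in both perturbed groups, MRE11 lies lower in both shRBM39 libraries, and ATM is high in indisulam replicates 1 and 2 but not 3.

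In all, 15 of the 37 members fell in both MM1S comparisons, which use separate control libraries: EXO1, CHEK1, CHEK2, CLSPN, BRCA1, RAD54L, FANCB, FANCE, FANCG, FANCL, UBE2T, FANCD2, FANCI, BRIP1 and TRAIP. They are 75% of the 20 that fell with shRBM39 and 78.9% of the 19 that fell with indisulam. Of the 12613 genes tested in both comparisons, 475 (3.77%) fell in both. The members that fell with shRBM39 alone were MRE11, TOPBP1, BRCA2, XRCC2 and BLM, and those that fell with indisulam alone were RBBP8, RAD51C, XRCC3 and FANCA; the difference between the comparisons was not tested.

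In H929, 35 of the 37 genes passed the filter on low values; RAD51B (0.216 to 0.361 FPKM) and FANCB (0.459 to 0.772 FPKM) did not. As labelled, 9 fell and 9 rose in the libraries labelled shRBM39, beside 48.1% of 10360 genes that fell and 24.1% that rose. The share of the 35 that fell was 25.7%, and the share that rose was 25.7%. The groups did not overlap in 13 members that were lower and 11 that were higher, beside 49.6% and 25.1% of all genes. BRCA2, among the 13 lower, passed the filter through the libraries labelled scramble alone. It was at 1.02 to 1.07 FPKM there and at 0.860 to 0.904 FPKM in those labelled shRBM39. The median log2 difference was -0.01, beside -0.13 for all genes tested, a shift that the scaling decides. After scaling each library to its median 5 members fell and 17 rose, beside 3312 and 3932 of all 10360 genes. After quantile normalization 4 members fell and 16 rose, beside 3620 and 3567 of all genes. The members that held their call under all 3 scalings were RAD51C, RAD54L, TOPBP1 and TRAIP as lower and ATM, BARD1, FANCA, FANCF, FANCI, FANCL, MRE11, NBN and UBE2T as higher. Summed over the 37 genes the level was 287 to 300 FPKM in the libraries labelled scramble and 301 to 318 FPKM in those labelled shRBM39. Of the 20 proliferation markers 6 fell and 10 rose as deposited, with a summed level of 782 to 803 FPKM and 939 to 989 FPKM; their part in the result was not tested.

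Genes whose proteins form the MRE11-RAD50-NBN complex and the BRCA1-BARD1 pair did not share 1 direction in H929 as deposited, although the falls of RAD50 and BRCA1 depended on the scaling. MRE11 was at 8.07, 7.65 and 8.00 FPKM in the libraries labelled scramble and at 16.4, 17.1 and 16.2 FPKM in those labelled shRBM39 (0.98, SE 0.0551, limma adjusted p = 5.43e-09). RAD50 was at 11.2, 10.8 and 10.8 FPKM in the libraries labelled scramble and at 8.40, 9.45 and 8.05 FPKM in those labelled shRBM39 (-0.31, SE 0.0649, limma adjusted p = 0.000718). NBN rose from 6.07, 5.50 and 5.68 FPKM to 7.49, 8.08 and 7.67 FPKM (0.37, limma adjusted p = 0.000128). None of these groups overlapped. The difference of RAD50 was -0.15 (limma adjusted p = 0.0432) after median scaling and did not pass after quantile normalization. Likewise BARD1 rose from 3.18, 3.31 and 2.90 FPKM to 4.81, 5.00 and 4.19 FPKM (0.45, SE 0.0750, limma adjusted p = 0.000113), while BRCA1 fell from 8.47, 7.65 and 7.59 FPKM to 6.75, 6.66 and 5.79 FPKM (-0.27, SE 0.0707, limma adjusted p = 0.00404). The fall of BRCA1 did not pass after median scaling or quantile normalization.

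FANCI rose while FANCD2 did not pass as deposited. FANCI was at 17.7, 17.0 and 16.8 FPKM in the libraries labelled scramble and at 33.6, 31.1 and 30.7 FPKM in those labelled shRBM39 (0.85, SE 0.0517, limma adjusted p = 1.12e-08). FANCD2 was at 9.73, 9.72 and 10.7 FPKM and at 10.4, 11.1 and 10.2 FPKM in the same order (0.07, limma adjusted p = 0.335), with overlapping groups, and it rose after median scaling and quantile normalization (0.24 after the latter, limma adjusted p = 0.00303). In the core complex with UBE2T, 4 of 8 genes tested rose and FANCC fell (-0.23) as deposited, beside 24.1% of all genes that rose and 48.1% that fell. After either scaling 6 rose and 0 fell. Over all 10360 genes 3932 rose and 3312 fell after median scaling, and 3567 and 3620 after quantile normalization. FANCL was at 4.55, 3.51 and 4.92 FPKM in the libraries labelled scramble and at 8.55, 6.29 and 6.18 FPKM in those labelled shRBM39 (0.58, SE 0.119, limma adjusted p = 0.000768). UBE2T was at 27.7, 25.1 and 26.1 FPKM and at 35.8, 32.2 and 31.4 FPKM in the same order (0.32, SE 0.0580, limma adjusted p = 0.000258). FANCA was at 6.61, 6.42 and 6.22 FPKM and at 8.03, 8.02 and 8.22 FPKM (0.29, SE 0.0581, limma adjusted p = 0.000510). For all 3 of these core genes every library labelled shRBM39 was above every library labelled scramble. ATM rose from 9.24, 8.98 and 8.16 FPKM to 12.1, 16.4 and 15.4 FPKM (0.67, SE 0.0918, limma adjusted p = 2.39e-05).

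Of the strand exchange group in H929, 4 of the 6 genes tested fell and 0 rose, beside 48.1% and 24.1% of all genes. RAD54L was at 10.4, 10.3 and 9.42 FPKM in the libraries labelled scramble and at 6.2, 6.07 and 5.75 FPKM in those labelled shRBM39 (-0.66, SE 0.0625, limma adjusted p = 7.06e-07). RAD51C was at 10.6, 10.1 and 11.8 FPKM and at 7.79, 7.51 and 7.93 FPKM in the same order (-0.44, SE 0.0650, limma adjusted p = 4.60e-05). XRCC2 (-0.24) and XRCC3 (-0.19) fell as deposited. After median scaling 2 of the 6 genes fell and 0 rose, beside 3312 and 3932 of all 10360 genes. TRAIP had the lowest difference of the members as labelled, from 15.1, 14.3 and 14.8 FPKM to 8.83, 9.14 and 7.49 FPKM (-0.73, SE 0.0698, limma adjusted p = 7.21e-07). TOPBP1 fell from 25.7, 25.3 and 23.3 FPKM to 18.7, 20.3 and 18.6 FPKM (-0.35, SE 0.0564, limma adjusted p = 8.99e-05). CHEK1 (-0.12), EXO1 (0.02), CLSPN (-0.01) and CHEK2 (0.04), which had all fallen in both MM1S comparisons, did not pass in H929 as deposited. After median scaling CHEK2 (0.21, limma adjusted p = 0.00884) and EXO1 (0.18, limma adjusted p = 0.0406) passed above 0, and CHEK2 did so after quantile normalization too.

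**Figure D3:**
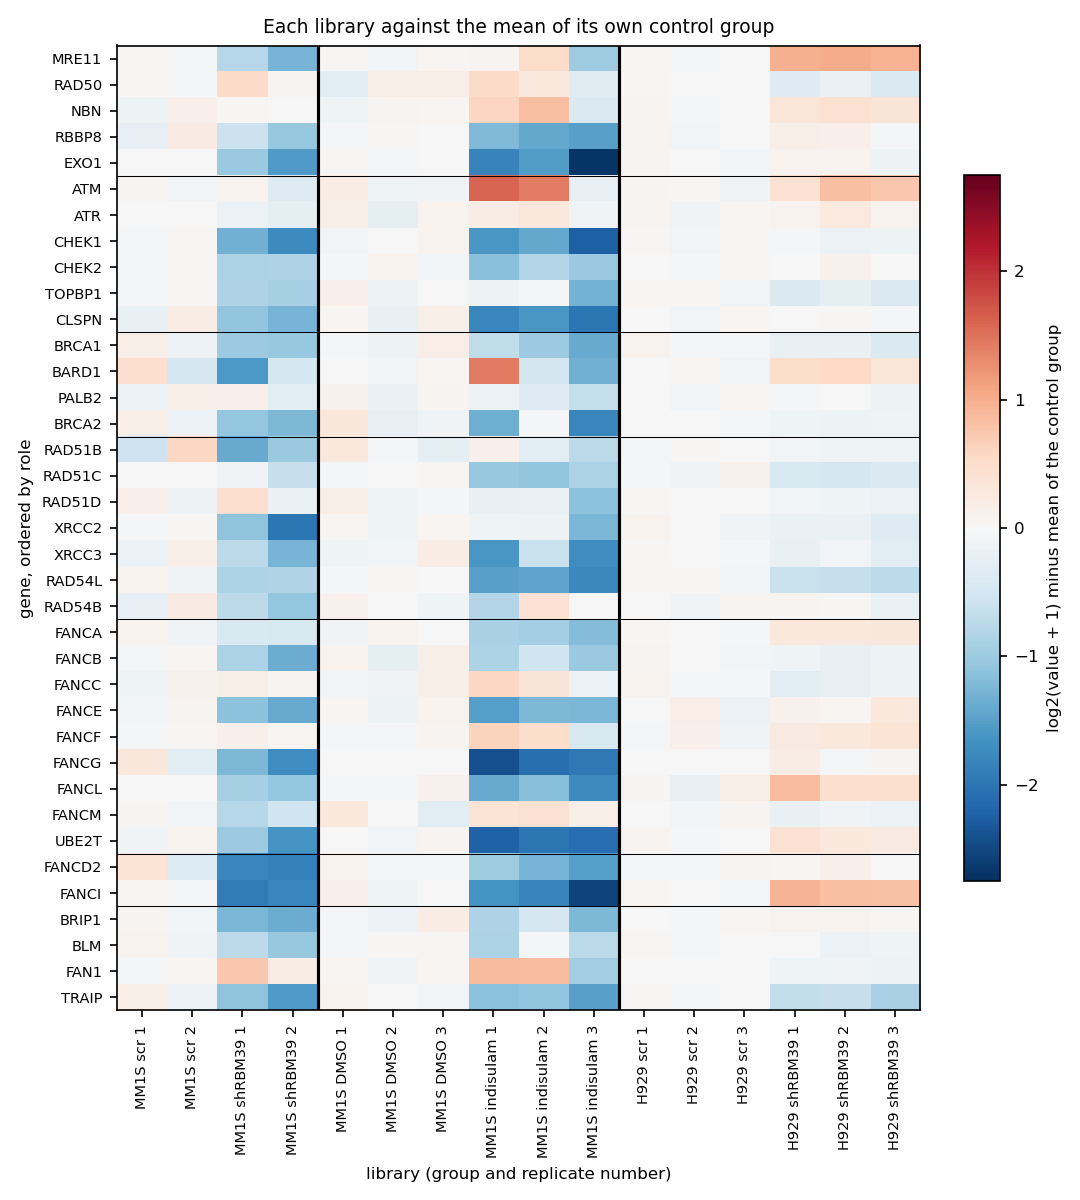
Heat map of log2(value + 1) in every expression library minus the mean of its control group, for the 37 genes ordered by role (rows) in the MM1S and H929 libraries (columns). The shRBM39 and indisulam libraries of MM1S are lower for most genes, indisulam replicate 3 is lower than replicates 1 and 2 for ATM, FAN1 and NBN, and the H929 libraries labelled shRBM39 hold both higher and lower genes.

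BRCA1, RAD54L and TRAIP, 3 of the 35 members tested in all 3 comparisons, were called lower in each as labelled, beside 0.906% of 9267 genes, with BRCA1 in H929 subject to the scaling. If the H929 direction is turned, the members lower in each are FANCI, FANCL and UBE2T, beside 2.47% of the genes. ATR, FAN1, FANCM, PALB2, RAD51B, RAD51D and RAD54B, 7 in all, were called in none with all libraries. MRE11, FANCL, UBE2T and FANCI fell in the MM1S knockdown and rose in H929 as labelled (4 of 35 members, beside 4.05% of 9509 genes). FANCA, FANCL, UBE2T and FANCI fell with indisulam and rose in H929 (4 of 35 members, beside 9.14% of 9358 genes), a share near that of all genes. TOPBP1, BRCA1, XRCC2, RAD54L and TRAIP fell in the MM1S knockdown and in H929 as labelled (5 of 35 members, beside 1.82% of 9509 genes). BRCA1, RAD51C, XRCC3, RAD54L and TRAIP fell with indisulam and in H929 (5 of 35 members, beside 7.62% of 9358 genes). RBM39 RNA was higher in the H929 libraries labelled shRBM39, so these directions follow the labels and not a measured loss of RBM39.

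The RIP libraries gave 1 value per gene and antibody, with no replicate and no test. Over the 10966 genes that reached 1 FPKM in at least 1 of the 2 libraries the median log2 ratio of RBM39 to IgG, with 1 added to each value, was 0.02, with 22.7% at 1 or more and 23.9% at -1 or less. The 37 members had a median of -0.23, with 7 at 1 or more and 6 at -1 or less, shares near those of all genes. The RNA of RBM39 itself was at 62.1 FPKM with the RBM39 antibody and at 127 FPKM with IgG. The members at 1 or more are given first; RAD51B, RAD54B and FANCB among them passed the filter through the RBM39 library alone. FANCC was at 41.1 FPKM with the RBM39 antibody and at 5.91 FPKM with IgG (log2 ratio 2.61), FANCE at 11.5 and 1.84 FPKM (2.14), and FANCB at 5.27 and 0.760 FPKM (1.83). RAD51C was at 21.9 and 6.79 FPKM (1.56), and RAD54L at 13.2 and 5.39 FPKM (1.16). RAD51B was at 17.7 FPKM and RAD54B at 1.18 FPKM with the RBM39 antibody, and both were listed at 0 with IgG.

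Among the low members, 3 were checkpoint genes. TOPBP1 was at 22.4 FPKM with the RBM39 antibody and at 156 FPKM with IgG (-2.74), CHEK1 at 12.1 and 51.3 FPKM (-2.0), and CHEK2 at 9.40 and 37.9 FPKM (-1.90). NBN was at 2.68 and 27.0 FPKM (-2.93), UBE2T at 2.32 and 21.9 FPKM (-2.79) and BLM at 4.21 and 12.4 FPKM (-1.36). Of the 5 members with the largest falls with shRBM39, CHEK1 is given above, FANCI had a ratio of 0.66, FANCD2 of -0.41, FANCG of -0.56 and XRCC2 of -0.62. The 20 members that fell in the MM1S knockdown had a median ratio of -0.48 and the 17 that were not called 0.10. With 1 library of each kind, binding and the spread between precipitates cannot be told apart.

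**Figure D4:**
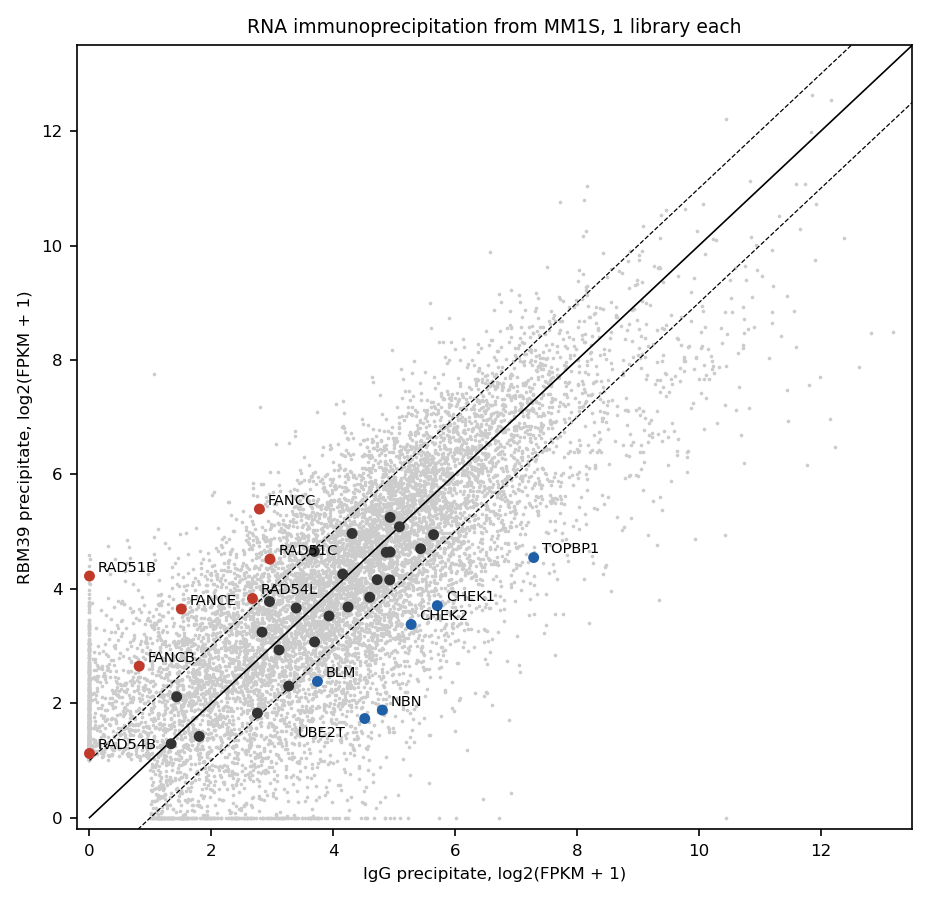
Log2(FPKM + 1) with IgG (horizontal axis) and with the RBM39 antibody (vertical axis) in MM1S, 1 library each, for all genes reaching 1 FPKM (grey) and the 37 members (large points; red at a log2 ratio of 1 or more, blue at -1 or less, black between); the solid line is equality and the dashed lines a log2 ratio of 1 and -1. Above the upper line lie 7 members, with RAD51B and RAD54B at the left edge where IgG is listed at 0, and 6 lie below the lower line.

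Other genes of the pathway, 56 that are not among the 37, are given for comparison. In the MM1S knockdown 13 fell and 0 rose, beside 6.35% and 3.97% of all genes. Among the 13 were MDC1, a scaffold at marked chromatin, and FIGNL1. With indisulam 22 of the 56 fell, among them CENPX and H2AX, and ABRAXAS1, a scaffold of the BRCA1-A complex, rose by 0.67. Of all genes tested there 21.5% fell and 8.47% rose. In H929 26 of 54 tested fell, led by WEE1, HROB and HUS1. The 13 that rose were led by RNF168, USP1, which removes ubiquitin from FANCD2, and ERCC1. As deposited the 26 and 13 are 48.1% and 24.1% of the 54, the same shares as over all genes. After median scaling 13 of these genes fell and 20 rose, beside 3312 and 3932 of all 10360 genes. Genes named here lead by adjusted p. End joining genes, which repair breaks without a template, had 2 of 19 tested lower with shRBM39 (POLQ and PRKDC), beside 6.35% of all genes, and 5 of 19 lower with indisulam (XRCC6, PAXX, PARP1, XRCC5 and POLQ), beside 21.5% of all genes. By limma 0 rose in either. In H929 5 of 16 fell and 4 rose. The difference between these lists and the 37 members was not tested.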

How the data were processed

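RNA sequencing values of 16 expression libraries and 2 RIP libraries were used as deposited. Neither aligner nor counter nor annotation is given in the sources used here. Mouse builds stand in the submitters' processing notes although the cells are human, so no coordinates were taken from the files. The RIP table holds FPKM made by the authors, per its column headers. The H929 columns name no unit, and their values were read as FPKM from the authors' name for them. These columns sum to between 374511 and 428099. In the MM1S tables the deposited values are TPM although the authors' names for them say FPKM, since each column sums to between 999999 and 1000001. Rows without a gene name (834 and 473 in the MM1S tables, at most 0.459% of the TPM) were left out, 0 columns were unmatched, and 0 pairs of libraries were identical. Depth in reads is unknown, and no interval from it is given.

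Genes that reached 1 in at least the number of libraries of the smaller group were tested on log2(value + 1) with limma 3.58.1 (trend and robust, R 4.3.3), each comparison within its own table, and p-values were adjusted by Benjamini-Hochberg over all genes tested. The test was checked on simulated data that had the same normal noise in every gene and library of a comparison. That setting does not cover the unequal spread of these libraries. RIP was described by its ratio alone. Other pseudocounts, filters, scalings, limma settings, a replicate block and leaving out each library were tried. Same-numbered libraries did not deviate together (correlations from -0.148 to 0.137), so the numbers were not used as pairs. Members were all accounted for by role; values in every library are given for called members among the 5 largest differences in either direction of a comparison and for members that differ in direction, and some others were added after their values were seen. The members and gene lists were chosen with earlier results of these data known. CHEK2 has near-identical pseudogene copies; CHEK2P2 reached 3.06 TPM, and how such reads were counted is not stated. Whether counting used strand is not stated either. A gene of the other pathway list is not reported by name here. Promoters came from RefSeq windows of GRCh38.p14, 250 bases before to 50 after each start, matched by symbol for 34 of 37 genes.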

Additional observations from a re-analysis of the deposited data

Results flagged for a closer look

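For 10 members every library moved one way in the MM1S knockdown and every library moved the opposite way in H929, as labelled. These are 28.6% of the 35 members tested in both lines, beside 33.6% of 9509 genes. The difference between the lines was not tested, since the tables were normalized separately, and RBM39 RNA goes against the labels in H929. The log2 differences in MM1S and in H929 were -1.03 and 0.98 for MRE11, -1.03 and 0.45 for BARD1, and -0.98 and 0.58 for FANCL. They were -1.32 and 0.32 for UBE2T, -1.86 and 0.85 for FANCI, and -1.31 and 0.09 for BRIP1. FANCA had -0.43 and 0.29, and ATR had -0.21 and 0.16. RAD50 (0.30 and -0.31) and FAN1 (0.47 and -0.12) were higher in the MM1S knockdown and lower in H929. Of these 10, MRE11, FANCL, UBE2T and FANCI passed limma's threshold in both lines. The labels in H929 and the direction of these differences cannot be told apart.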

How the results depend on the processing

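The MM1S knockdown calls were the least stable: of the 37 members, limma called 0 lower with no filter on low values, 4 with a replicate block and 10 with the crossed replicate block, which was added after seeing the data, and between 0 and 7 when a library was left out. Beside these counts of 0, limma called 0 of all genes with no filter and without scramble replicate 1, scramble replicate 2 or shRBM39 replicate 2; at an unadjusted p below 0.05 the counts were 4966, 2296, 2424 and 4605. With the replicate block 195 of all 14152 genes tested were lower and 60 higher, and with the crossed replicate block 521 and 251. All 20 members kept their direction. With indisulam all 19 kept their direction and 15 were called in every alternative that could be fitted; leaving out a library gave between 0 and 5 members higher, the 5 without indisulam replicate 3. A replicate block left 18 lower there and 9 lower and 9 higher in H929. In H929 all 18 kept their direction and 13 were called in every alternative. The groups of the called members did not overlap in any of the comparisons. Leaving out a library or adding a replicate block could therefore not have reversed a direction, and that part of the check carries no weight. After median scaling 5 members were lower and 17 higher, beside 3312 and 3932 of 10360 genes. After quantile normalization 4 were lower and 16 higher, beside 3620 and 3567 of 10360 genes. The median RIP ratio of the members was -0.24 with a pseudocount of 0.1, -0.29 with a filter at 5 FPKM and -0.25 after median scaling. Depth in reads is unknown, so what low genes such as FANCB could show cannot be stated.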
